A study of Homo sapiens with 6 samples.

Results

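The 60 nM dabrafenib culture of A375 cells held 2 groups of cells with opposite sets of highly expressed genes, and these groups, clusters 1 and 3 of the authors' deposited clustering, are described here. Cells were taken by name: those that the authors' A375 cell table lists under the 60 nM population with cluster number 1 (409 cells) or 3 (260 cells), 669 of the 906 listed cells of that culture and of its 1451 cells in all. A375 is a human melanoma cell line that carries a constitutively active mutant of the kinase BRAF, and dabrafenib is an inhibitor of that mutant. Populations of A375 were adapted to dabrafenib by dose escalation, at 30, 60, 125, 250 and 500 nM and at 1, 2 and 4 µM, beside an untreated culture, and each dose is 1 culture. Cells of all 9 cultures were tagged with lipid-anchored oligonucleotides (CellPlex), pooled, and sequenced as 1 droplet pool with 3′ chemistry in 2 sequencing runs that the cell names do not tell apart. The groups set beside each other are therefore 60 nM cluster 1 and 60 nM cluster 3, both adapted to the same dose in the same culture, and, for context, cluster 3 cells of the 30 nM culture (373 cells) and cluster 0 cells of the untreated culture (343 cells).

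The cluster numbers are the authors' and clusters of this kind are built from the expression of the cells themselves, so every difference between them describes the clustering and has no test. There is 1 culture, and the 95% intervals given for folds and shares cover counting error only. A level is given in counts per 1000000 UMIs (CPM), where a UMI is 1 captured RNA molecule and the UMIs of all cells of a group were summed. How the authors chose the listed cells is not stated, and cell cycle genes had a median of 4 of 2500 UMIs per cell in cluster 1 and 3 in cluster 3, beside 20 in the 60 nM cells outside the table.

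In BRAF-mutant melanoma the kinase cascade BRAF, MEK and ERK is constantly active. ERK switches on growth genes and also its own brakes, the SPRY proteins and the DUSP phosphatases, so the RNA of these genes is widely read as a measure of the output of the pathway. Melanoma cells can also take on different lineage programs: a pigment cell program led by the transcription factor MITF, programs that recall the embryonic neural crest from which melanocytes arise, marked by NGFR and SOX10, and mesenchymal programs rich in matrix and contractile genes.

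Sequences that stand for the contrast are the promoters of VGF, among the genes with the highest ratio of cluster 1 over cluster 3, and of DCT, among those with the lowest. They are shown from 250 bases before to 50 bases after the annotated start (RefSeq, GRCh38.p14, minus strand of each chromosome, read 5′ to 3′). VGF lies at chr7:101165520-101165819 and DCT at chr13:94479633-94479932. Capitals mark matches, on either strand, to TGACGTCA, the cAMP response element, and to CATGTG and CACGTG, E-box forms that MITF can bind.
VGF: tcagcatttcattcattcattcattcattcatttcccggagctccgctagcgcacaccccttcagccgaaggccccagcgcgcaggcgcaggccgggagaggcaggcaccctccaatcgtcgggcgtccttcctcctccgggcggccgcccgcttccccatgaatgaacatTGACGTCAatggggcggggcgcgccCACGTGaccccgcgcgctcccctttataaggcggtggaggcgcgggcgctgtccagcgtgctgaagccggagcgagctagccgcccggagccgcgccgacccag
DCT: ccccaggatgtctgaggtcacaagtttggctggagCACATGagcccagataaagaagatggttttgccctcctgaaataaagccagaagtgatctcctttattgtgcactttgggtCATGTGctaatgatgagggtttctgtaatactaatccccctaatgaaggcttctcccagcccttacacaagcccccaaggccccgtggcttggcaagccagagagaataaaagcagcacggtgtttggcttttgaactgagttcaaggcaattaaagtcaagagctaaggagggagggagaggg
The VGF promoter held 1 match to TGACGTCA and 1 to CACGTG, and the DCT promoter held 2 matches to CATGTG. Of 27305 promoters of this length, 1.98% held TGACGTCA, 11.2% held CATGTG and 7.43% held CACGTG. A match is a run of letters and not a measured binding site.

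Cluster 1 was deeper than cluster 3. Cells of cluster 1 had a median of 9442 UMIs and 3648 genes, and cells of cluster 3 a median of 4770 UMIs and 2327.5 genes. Summed, the groups held 4082725 and 1589959 UMIs. The median mitochondrial share was 6.71% in cluster 1 and 6.58% in cluster 3. Because of the depth gap, shares of cells with a gene are given after each cell was thinned at random to 2500 UMIs, which left out 2 cells of cluster 1 and 19 of cluster 3. No barcode occurred under more than 1 cell name.

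Cells of both clusters carried melanoma genes. Of 9 melanoma markers, TYR had no UMI in cluster 1 and all 9 had UMIs in cluster 3. In cluster 3, TYR, PMEL and MLANA had only 5, 4 and 5 UMIs. The summed level of the 9 markers was 933 CPM in cluster 1 and 1672 CPM in cluster 3, of which DCT alone gave 15.7 and 789 CPM. SOX10, the lineage factor of neural crest and melanocytes, was at 274 CPM in cluster 1 and 209 CPM in cluster 3, a fold of 1.31 (95% interval 1.16 to 1.49). BRAF itself was at 148 CPM in cluster 1 and 123 CPM in cluster 3, a fold of 1.20 (1.02 to 1.42). Neither gene reached the 2-fold level used below for calling a gene different.

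A gene counted as measured when its higher cluster had 10 CPM or more from 20 UMIs or more, which held for 9506 genes. Cluster 1 was at least 2-fold higher in 723 of them (7.61%) and at least 2-fold lower in 679 (7.14%). Over all 9506 genes the log2 ratio of cluster 1 over cluster 3 had a median of 0.00. These shares are the background for the counts of each gene group below.

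**Figure D1:**
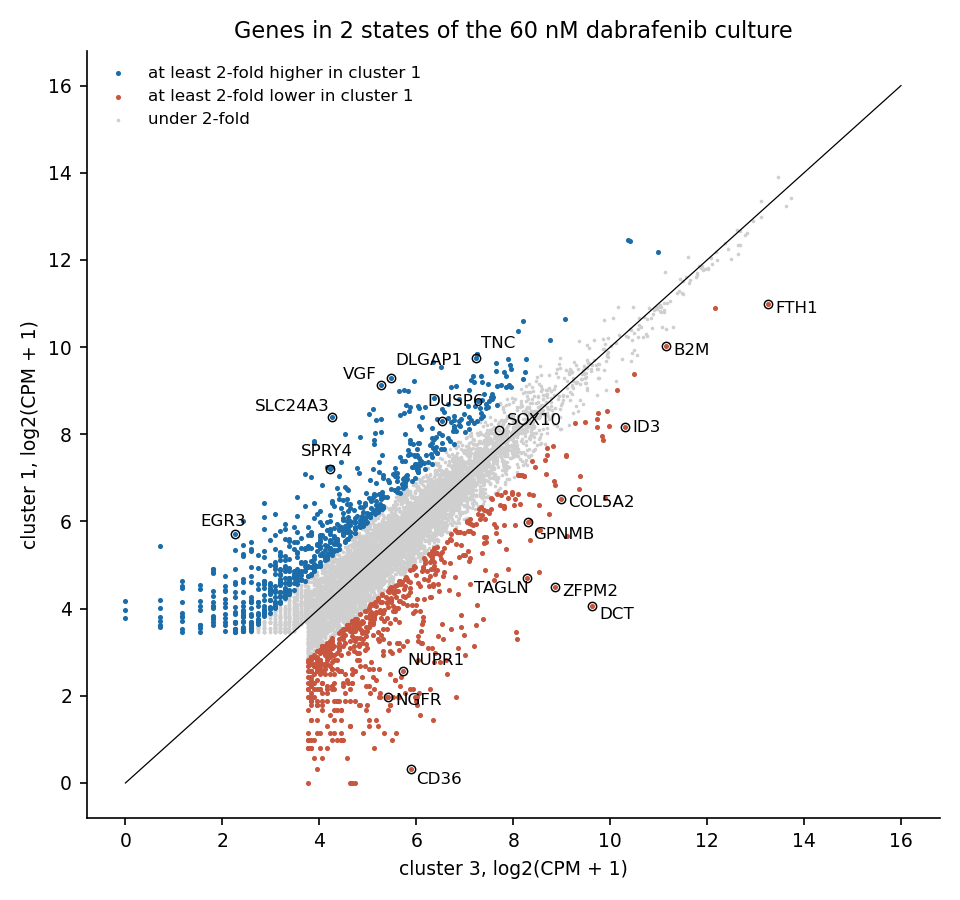
Level of each of 9506 genes in cluster 1 (vertical axis) and cluster 3 (horizontal axis) of the 60 nM culture, as log2(CPM + 1). Each point is a gene, and the diagonal marks equal levels. The 723 genes at least 2-fold higher in cluster 1 lie above the diagonal and the 679 at least 2-fold lower lie below it, with DCT and CD36 far below and SLC24A3 and VGF far above.

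Genes that ERK switches on were higher in cluster 1. Of 17 measured genes of the MAPK output list, 13 were at least 2-fold higher in cluster 1 and none was lower, with a median log2 ratio of 1.69. SPRY4, which blocks signalling from receptors to RAS, was at 147 CPM in cluster 1 and 17.6 CPM in cluster 3, 8.36-fold higher (5.72 to 12.7). It was found in 32.2% of cluster 1 cells and in 2.90% of cluster 3 cells at 2500 UMIs, beside 34.6% of untreated cluster 0 cells. DUSP6, the phosphatase that switches ERK off, was at 316 CPM in cluster 1 and 91.2 CPM in cluster 3, 3.46-fold higher (2.92 to 4.14).

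The transcription factors and growth genes of the same list went the same way. ETV4 was 6.44-fold (3.95 to 11.2) and ETV5 3.79-fold (2.64 to 5.60) higher in cluster 1; both are factors of the ETS family induced by ERK. CCND1, cyclin D1, was at 328 CPM in cluster 1 and 99.4 CPM in cluster 3, and it was found in 50.1% of cluster 1 cells and 14.9% of cluster 3 cells. IER3, an early response gene, was at 589 CPM in cluster 1 and 162 CPM in cluster 3. The 4 measured genes under 2-fold were SPRED1, ETV1, EPHA2 and FOSL1, and of these EPHA2, a receptor kinase, had the only negative log2 ratio, at -0.73. The genes of the cascade itself differed little: of 12 measured RAS, RAF, MEK and ERK genes none reached 2-fold in either direction, with a median log2 ratio of -0.12.

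Immediate early genes were partly higher. Of 19 measured members, 5 were at least 2-fold higher in cluster 1 (FOSB, EGR2, EGR3, MAFF and NR4A1) and 2 at least 2-fold lower (FOSL2 and ATF3). NR4A1, an orphan nuclear receptor, was at 223 CPM in cluster 1 and 57.2 CPM in cluster 3. EGR3, a zinc finger factor induced by growth factors, was at 51.2 CPM in cluster 1 and 3.77 CPM in cluster 3, 13.6-fold higher (6.13 to 37.4), from 6 UMIs in cluster 3.

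The genes with the highest ratios in cluster 1 were mixed in function, and some were about as high in untreated cluster 0 cells, as given below. SLC24A3, a sodium, potassium and calcium exchanger (GRCh38, chr20:19212646-19722937), was at 334 CPM in cluster 1 and 18.2 CPM in cluster 3, 18.3-fold higher (12.7 to 27.5). VGF, a secreted precursor of neuropeptides, was at 556 CPM in cluster 1 and 37.7 CPM in cluster 3, 14.7-fold higher (11.4 to 19.4). It was found in 60.0% of cluster 1 cells, 4.56% of cluster 3 cells and 28.4% of untreated cluster 0 cells. DLGAP1, a scaffold protein of synapses, was at 629 CPM in cluster 1 and 43.4 CPM in cluster 3.

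Signalling genes stood among the same 15. TGFA, a ligand of the EGF receptor, was at 518 CPM in cluster 1 and 52.8 CPM in cluster 3, 9.80-fold higher (7.88 to 12.3). CHRM3, a muscarinic acetylcholine receptor, was 9.84-fold higher (8.03 to 12.2), and PDE3A, a phosphodiesterase that degrades cyclic nucleotides, 11.6-fold higher (8.31 to 16.8). NPAS2, a circadian transcription factor, was found in 80.6% of cluster 1 cells and 10.8% of cluster 3 cells. CEMIP, a hyaluronan-binding protein (chr15:80779343-80951776), and ABHD17C, a depalmitoylase (chr15:80679684-80755621), lie next to each other in position, and were 16.1-fold (10.6 to 25.8) and 11.3-fold (8.51 to 15.3) higher in cluster 1.

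These 15 genes were chosen for a low level in cluster 3, where they had from 6 UMIs (EGR3) to 128 UMIs (NPAS2), and the share held by a few cells depends on that number. The 5 cells with the most held 28.6% of the cluster 3 UMIs of TGFA, 39.1% of those of NPAS2 and 75.9% of those of SLC24A3. Without cells deeper than 2 times their cluster's median, the log2 ratio was 7.43 for SLC24A3 (4.12 over all cells), 7.03 for DLGAP1 (3.83), 6.01 for VGF (3.85) and 4.08 for SPRY4 (2.99). It was 5.09 for CHRM3 (3.28), 5.05 for PDE3A (3.48), 5.03 for CEMIP (3.91), 4.62 for ABHD17C (3.45) and 4.60 for NPAS2 (3.301). All 15 ratios were higher without these cells, 13 of them by more than 1.5-fold.

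Pigment genes were mostly lower in cluster 1. Of 8 measured members, 5 were at least 2-fold lower in cluster 1 (MITF, DCT, GPNMB, BCL2A1 and ZEB2) and 1, OCA2, was higher, with a median log2 ratio of -1.56. DCT, dopachrome tautomerase, an enzyme of melanin synthesis (chr13:94436808-94479682), was at 15.7 CPM in cluster 1 and 789 CPM in cluster 3, 50.3-fold lower in cluster 1 (39.1 to 65.7). It was found in 1.97% of cluster 1 cells and 52.7% of cluster 3 cells at 2500 UMIs, beside 0.293% of untreated cluster 0 cells from the same droplet pool. The part of free RNA in the droplets was not tested. In cluster 1, 73.4% of the DCT UMIs lay in 5 cells.

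MITF was at 90.4 CPM in cluster 1 and 261 CPM in cluster 3, 2.89-fold lower in cluster 1 (2.50 to 3.33), and was found in 22.1% of cluster 1 cells and 51.5% of cluster 3 cells. GPNMB, a melanosome glycoprotein, was at 62.9 CPM in cluster 1 and 314 CPM in cluster 3, and ZEB2, a repressor active in melanocytes, was at 97.5 CPM in cluster 1 and 321 CPM in cluster 3. BCL2A1, an antiapoptotic gene under MITF control, was at 9.31 CPM in cluster 1 and 30.2 CPM in cluster 3. OCA2, a melanosome transporter, went the other way, at 43.4 CPM in cluster 1 and 4.40 CPM in cluster 3. TYR, PMEL, MLANA and TYRP1, the other defining pigment markers, did not reach the minimum level in either cluster.

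Neural crest genes were split between the clusters. Of 16 measured members, 6 were at least 2-fold lower in cluster 1 (among them NGFR, FOXD3, TFAP2A, SOX2 and SNAI2) and 3 were higher (TFAP2B, NES and RXRG). NGFR, the low-affinity neurotrophin receptor, was at 2.94 CPM in cluster 1 and 41.5 CPM in cluster 3, 14.1-fold lower in cluster 1 (7.57 to 28.7). It was found in 0.246% of cluster 1 cells and 9.54% of cluster 3 cells, and in none of the 341 thinned untreated cluster 0 cells. FOXD3, a factor of early neural crest, was at 13.0 CPM in cluster 1 and 69.2 CPM in cluster 3.

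The members with the opposite sign had folds of similar size. RXRG, a retinoid receptor linked to drug-tolerant melanoma, was at 56.1 CPM in cluster 1 and 8.81 CPM in cluster 3, 6.37-fold higher (3.72 to 11.8). NES, the intermediate filament nestin, was at 106 CPM in cluster 1 and 22.6 CPM in cluster 3, and TFAP2B, a transcription factor of the AP-2 family, was at 558 CPM in cluster 1 and 214 CPM in cluster 3. Members of the list were thus high in both clusters, and no cluster is named from it here.

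**Figure D2:**
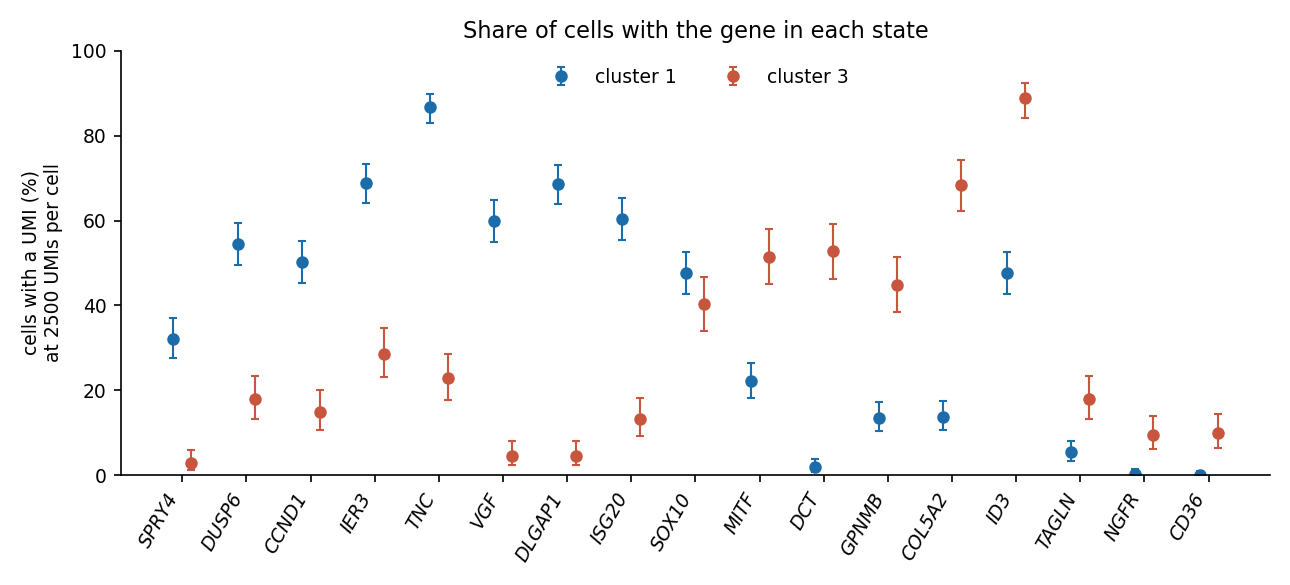
Share of cells with at least 1 UMI of a gene after thinning to 2500 UMIs per cell (vertical axis, percent), for 17 genes (horizontal axis) in cluster 1 (407 cells) and cluster 3 (241 cells). Bars are 95% exact binomial intervals for counting error. SPRY4, DUSP6, VGF and DLGAP1 are found in more cluster 1 cells and MITF, DCT, GPNMB and COL5A2 in more cluster 3 cells, while SOX10 is near 47.7% in cluster 1 and 40.2% in cluster 3.

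Matrix, adhesion and contractile genes differed by gene. Of 21 measured matrix genes, 6 were higher and 7 lower in cluster 1. TNC, tenascin C, was at 855 CPM in cluster 1 and 150.3 CPM in cluster 3, and was found in 86.7% of cluster 1 cells and 22.8% of cluster 3 cells. COL5A2, a fibrillar collagen chain, was at 90.9 CPM in cluster 1 and 506 CPM in cluster 3, 5.56-fold lower in cluster 1 (4.91 to 6.31). FN1, fibronectin, was at 9.55 CPM in cluster 1 and 126 CPM in cluster 3. The basement membrane chains COL4A1 and COL4A2 were among the 6 higher in cluster 1 and COL5A1 among the 7 lower.

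Of 13 integrin subunits, 6 were at least 2-fold higher in cluster 1 (ITGA1, ITGA3, ITGA9, ITGA10, ITGB3 and ITGB5) and 1 lower (ITGA2), with a median log2 ratio of 0.97. ITGA9 was at 63.4 CPM in cluster 1 and 4.40 CPM in cluster 3. ITGB3, which pairs with ITGAV, was at 50.5 CPM in cluster 1 and 7.55 CPM in cluster 3. ITGA10 was at 17.1 CPM in cluster 1 and had no UMI in cluster 3, so that it was at least 9.09-fold higher, counted against 3 UMIs over the whole cluster. The lower limit of its 95% interval was 7.20-fold. ITGA2, a collagen receptor chain, was at 83.3 CPM in cluster 1 and 282 CPM in cluster 3.

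Of 9 measured smooth muscle genes, 6 were at least 2-fold lower in cluster 1 (TAGLN, ACTA2, MYOCD, MYL9, MYLK and TPM1), with a median log2 ratio of -2.08. That median was -0.55 without the 10 cells of cluster 1 and 41 cells of cluster 3 that had more than 2 times their cluster's median UMIs. TAGLN, transgelin, an actin-binding protein, was at 24.98 CPM in cluster 1 and 312 CPM in cluster 3, but 72.4% of its cluster 3 UMIs lay in 5 cells. Its log2 ratio was -3.59 over all cells and -1.19 without those deep cells, and it was found in 5.41% of cluster 1 cells and 17.8% of cluster 3 cells. MYLK, myosin light chain kinase, was spread more evenly, with 24.6% of its cluster 3 UMIs in 5 cells, and was at 11.02 CPM in cluster 1 and 120.1 CPM in cluster 3.

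Growth factor genes also pointed both ways. INHBA, which encodes activin A, was at 319.6 CPM in cluster 1 and 35.2 CPM in cluster 3, 9.08-fold higher (6.94 to 12.1). ID3, an inhibitor of helix-loop-helix factors induced by BMP signals, was at 286 CPM in cluster 1 and 1262 CPM in cluster 3, 4.42-fold lower in cluster 1 (4.11 to 4.75), and was found in 47.7% of cluster 1 cells and 88.8% of cluster 3 cells. FGFR1, IGF1R, ROR1, IGFBP2 and IGFBP3 were at least 2-fold higher in cluster 1, of 13 measured receptor tyrosine kinases and ligands, and NRG1 and IGFBP5 lower. NRG1, the ligand of ERBB3, was at 19.3 CPM in cluster 1 and 116 CPM in cluster 3, with 78.5% of its cluster 1 UMIs in 5 cells.

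Genes of immune recognition were mostly under 2-fold. Of 16 measured antigen presentation genes 3 were at least 2-fold lower (HLA-E, HLA-F and B2M) and none higher, with a median log2 ratio of -0.74. B2M, the invariant chain of class I molecules, was at 1042 CPM in cluster 1 and 2263 CPM in cluster 3. Of 7 measured complement genes 1 was higher and 3 were lower in cluster 1. Of those that protect cells from complement, CD59 was at 180.0 CPM in cluster 1 and 544 CPM in cluster 3, and CD55 at 78.6 CPM in cluster 1 and 23.9 CPM in cluster 3. Of 14 interferon response genes 4 were lower (IFIT2, IFI44, IFITM2 and IFITM3) and ISG20, an exonuclease, was higher, at 396 CPM in cluster 1 and 71.1 CPM in cluster 3. HLA and IFITM genes have close paralogs, so reads may be shared between them, and their values are uncertain.

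Iron storage genes were lower in cluster 1. FTH1, the heavy chain of ferritin, was at 2020 CPM in cluster 1 and 9754 CPM in cluster 3, 4.83-fold lower in cluster 1 (4.70 to 4.96), and FTL, the light chain, was at 1912 CPM in cluster 1 and 4604 CPM in cluster 3. Both have many processed pseudogenes that can take reads. TFRC, the transferrin receptor that brings iron in, was the 1 member of 9 measured that was at least 2-fold higher in cluster 1. CD36, a fatty acid transporter, had 1 UMI in cluster 1 (0.245 CPM) and 93 UMIs in cluster 3 (58.5 CPM), a ratio of 239 with an interval from 41.8 to 9533.

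Genes of other processes mostly stayed under 2-fold. None of the 13 mitochondrially encoded genes reached 2-fold. In the sterol synthesis list 2 of 14 members were higher in cluster 1 and none lower, and in the glycolysis list 2 of 16 were higher, HK2 and SLC2A1. Of the NRF2 targets NQO1, a quinone reductase, was at 646 CPM in cluster 1 and 228 CPM in cluster 3. NUPR1, a stress-induced nuclear protein, was at 4.90 CPM in cluster 1 and 51.6 CPM in cluster 3. Of 10 measured BCL2 family genes 1 was higher and 2 were lower in cluster 1. MCL1, which protects from apoptosis, was at 391 CPM in cluster 1 and 159 CPM in cluster 3. The lower ones were BCL2A1, given above, which also protects, and BMF, which promotes apoptosis, at 2.69 CPM in cluster 1 and 25.8 CPM in cluster 3. Of the cell cycle genes TYMS alone among 19 S-phase genes (2.12-fold) and ANP32E alone among 24 genes of G2 and mitosis (2.02-fold) were at least 2-fold higher in cluster 1 and none lower. The listed cells held few cell cycle UMIs, as given above, and the part of how they were listed was not tested.

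The genes with the lowest ratios, after CD36 and DCT, included genes of adhesion and development. CNTN5, a contactin of neurons, was at 8.82 CPM in cluster 1 and 269 CPM in cluster 3. ZFPM2, a cofactor of GATA factors, was at 21.6 CPM in cluster 1 and 462 CPM in cluster 3, 21.4-fold lower in cluster 1 (17.2 to 27.1), and was found in 5.65% of cluster 1 cells and 59.3% of cluster 3 cells. CADM2, a cell adhesion molecule, and DKK1, an inhibitor of WNT signals, were each carried by few cells, with 62.2% and 66.0% of their cluster 3 UMIs in 5 cells. SPANXB1 belongs to a family of near-identical X-linked genes, and its value is uncertain.

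Markers of other cell types were summed in each cluster. Immune markers summed to 14.9 CPM in cluster 1 and 59.1 CPM in cluster 3, of which CD68, a lysosomal protein, gave 8.57 CPM in cluster 1 and 54.7 CPM in cluster 3. PTPRC was without a UMI in cluster 3, and CD3D and CD14 were without one in cluster 1. Fibroblast markers summed to 12.7 CPM in cluster 1 and 106 CPM in cluster 3, led in cluster 3 by FAP (44.7 CPM) and LUM (40.9 CPM), with COL1A1 without a UMI in cluster 1 and PDGFRA in cluster 3. Endothelial markers summed to 8.57 CPM in cluster 1 and 7.55 CPM in cluster 3, and epithelial markers to 364 CPM in cluster 1 and 281 CPM in cluster 3. Most of the epithelial sum was the keratin KRT18, at 318 CPM in cluster 1 and 227 CPM in cluster 3, and EPCAM and CDH1 had no UMI in cluster 3. CD68, FAP and LUM were at least 2-fold lower in cluster 1, and their part in the other differences was not tested.

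Cluster 3 was itself not uniform, and its genes changed with depth. Its cells were divided by total UMIs into a shallow, a middle and a deep part of 87, 86 and 87 cells. DCT was at 1463, 1423 and 309 CPM in these parts, in that order, and NGFR at 61.9, 62.4 and 26.2 CPM. TAGLN was at 54.2, 40.8 and 508 CPM and FTH1 at 5379, 5336 and 13001 CPM. The deep part thus held less DCT and NGFR RNA and more TAGLN and FTH1 RNA. Cluster 1 varied less: DUSP6 was at 374, 293 and 302 CPM and FTH1 at 1746, 1707 and 2378 CPM, although DCT was at 1.05, 2.33 and 32.5 CPM. Whether deep cells hold more than 1 cell was not tested.

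Single cells seldom held both gene sets. The 15 top genes of cluster 1 and the 15 top genes of cluster 3 were each summed per cell at 2500 UMIs. Cluster 1 cells had a median of 14 UMIs of the first set and 0 of the second, and cluster 3 cells 0 of the first and 6 of the second. Since the genes were chosen for this contrast, these medians are a description. The 545 cells of the 60 nM culture outside the authors' table were not used to choose the genes, and 516 of them had the depth needed. They had a median of 9 UMIs of the first set and 0 of the second.

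With 5 UMIs as the mark of a set, a limit chosen after the values were seen, 379 of these 516 cells (73.4%) held only the cluster 1 set. Another 33 (6.395%) held only the cluster 3 set, 8 (1.55%) held both and 96 (18.6%) neither. The sums of the sets had a Pearson correlation of -0.38 and a Spearman correlation of -0.47 over these 516 cells, which share 1 pool and 1 depth. In cluster 3 itself 145 of 241 cells (60.2%) held only the cluster 3 set and 88 (36.5%) neither, while 3 cells held only the cluster 1 set and 5 both. In cluster 1 only 1 cell held the cluster 3 set alone and 2 both. In cluster 4 of the same culture 54 of 124 cells (43.5%) also held only the cluster 3 set, so that set does not mark cluster 3 alone. How many cells of both kinds were doublets was not tested.

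**Figure D3:**
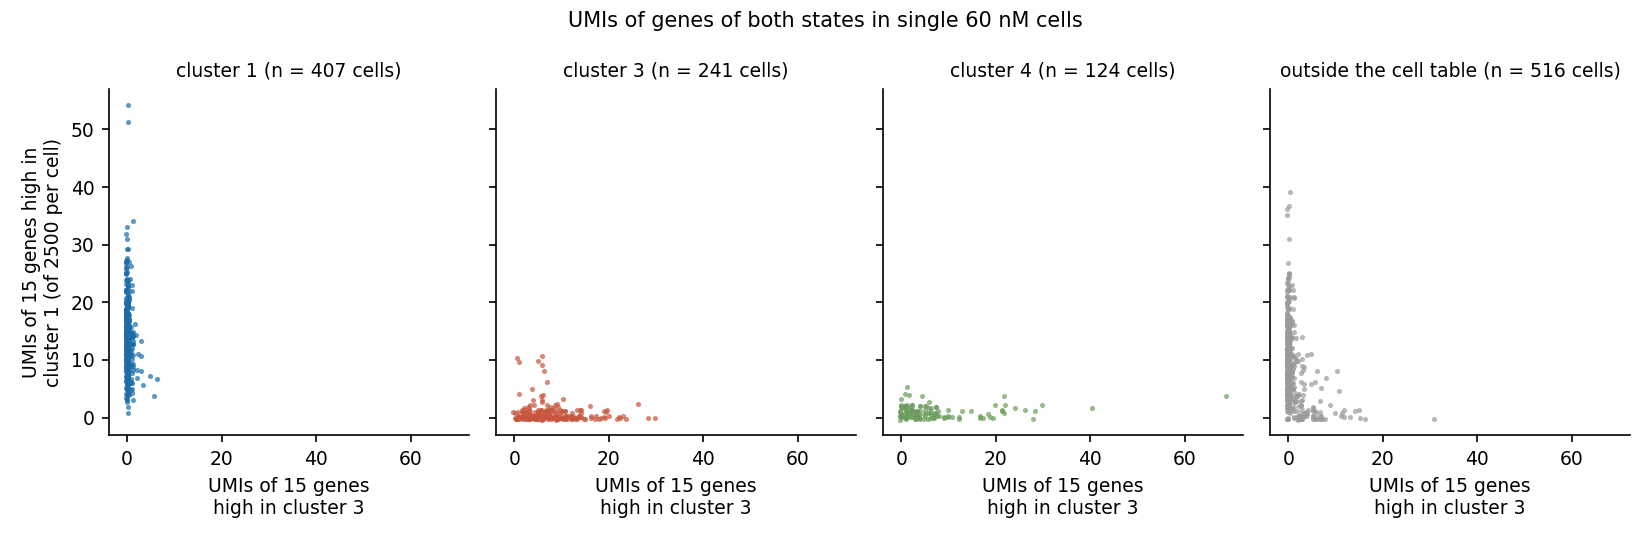
UMIs of the 15 genes highest in cluster 1 (vertical axis) against UMIs of the 15 genes highest in cluster 3 (horizontal axis) per cell of the 60 nM culture, thinned to 2500 UMIs and jittered, for cluster 1, cluster 3, cluster 4 and the cells outside the cell table. Each point is a cell. Points lie along the axes, and 8 of the 516 cells outside the table reach 5 UMIs on both.

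The clusters were spread over other cultures of the escalation. Cluster 3 took 3.39% of the listed untreated cells, 78.0% with 30 nM, 28.7% with 60 nM, 9.80% with 125 nM, 3.27% with 250 nM and between 7.49% and 10.5% with 500 nM to 4 µM. Cluster 1 took 15.6% of the listed untreated cells, 1.67% with 30 nM, 45.1% with 60 nM, 57.2% with 125 nM, 9.41% with 250 nM and at most 1.25% with higher doses. The 60 nM culture was the only one of the 9 in which both clusters held over 10% of the listed cells. Each share is 1 culture, and the 95% interval is 41.9% to 48.5% for cluster 1 at 60 nM and 25.8% to 31.8% for cluster 3.

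Levels in whole cultures, over all cells, also changed with dose, but not always as the shares of the clusters did. SPRY4 was at 126 CPM in untreated cells, 13.98 with 30 nM, 95.2 with 60 nM, 94.6 with 125 nM, 38.9 with 250 nM and 9.35 to 11.8 CPM with 500 nM to 4 µM. VGF was at 154 CPM in untreated cells, 45.3 with 30 nM, 358 with 60 nM, 386 with 125 nM, 60.0 with 250 nM and 42.1 to 58.8 CPM with higher doses. Both genes were thus low at 30 nM, high at 60 and 125 nM and low again from 500 nM. SPRY4 was highest in the untreated culture, where cluster 1 took 15.6% of the listed cells. In a whole culture, fewer cells of a kind and less RNA per cell cannot be told apart.

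DCT was at 6.55 CPM in untreated cells, 110.1 with 30 nM, 103 with 60 nM, 57.2 with 125 nM, 32.6 with 250 nM and 26.9 to 43.6 CPM with higher doses. NGFR was at 6.05 CPM in untreated cells, 80.4 with 30 nM and 1.76 to 6.78 CPM with all higher doses. TAGLN was at 185 CPM in untreated cells, 460.2 with 30 nM, 292 with 60 nM and 4066 CPM with 4 µM. DCT was thus at similar levels with 30 and 60 nM, where cluster 3 took 78.0% and 28.7% of the listed cells. TAGLN was highest with 4 µM, where cluster 3 took 7.91%. The DCT level of 789 CPM in 60 nM cluster 3 was above that of every whole culture, and also above the 229 to 400.4 CPM of cluster 3 cells at 30 nM and from 500 nM to 4 µM.

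**Figure D4:**
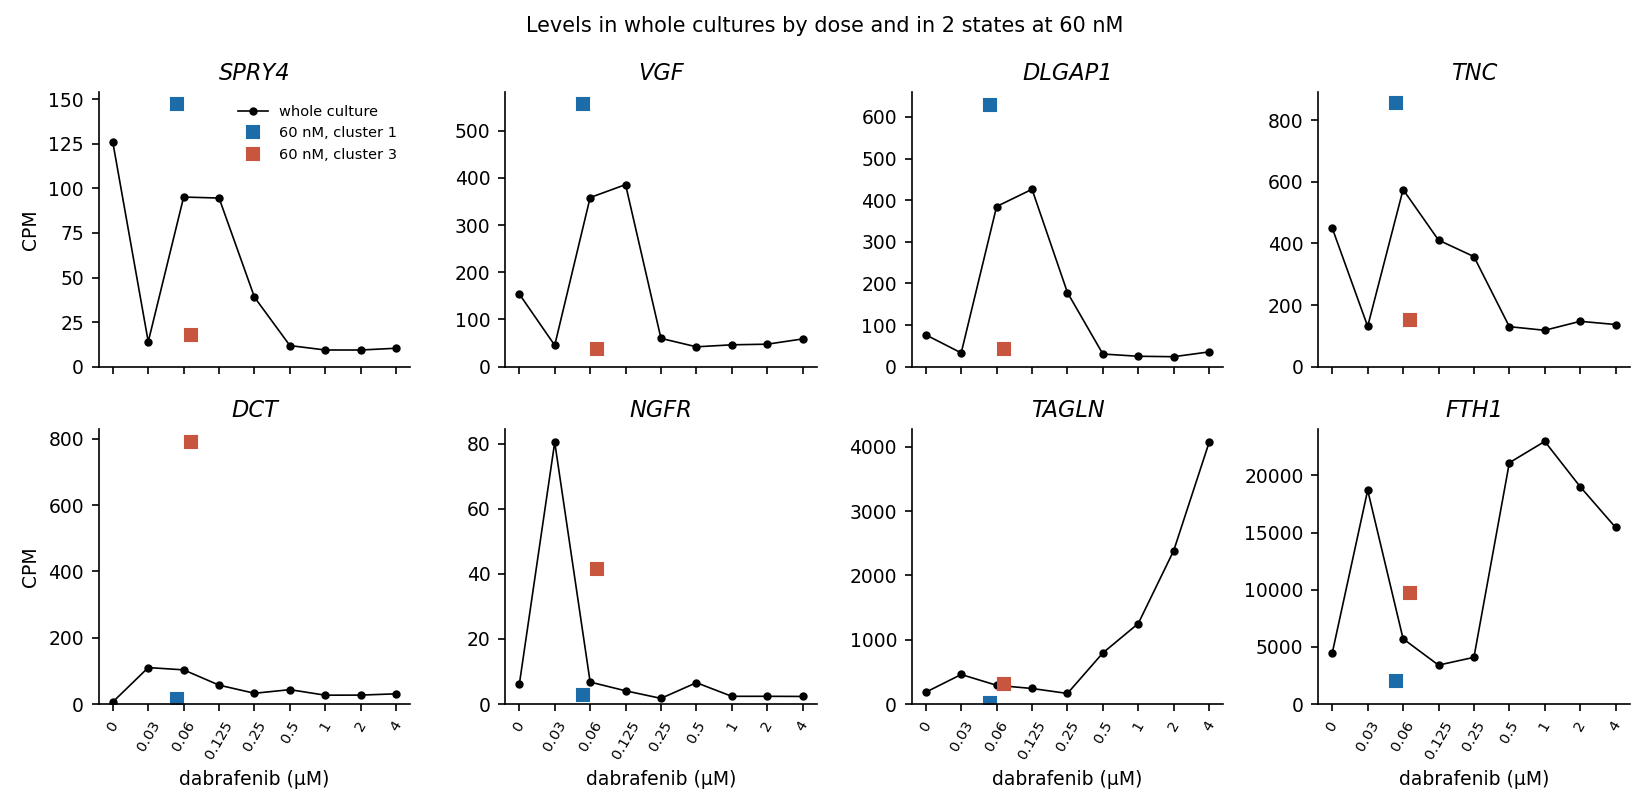
Level (CPM, vertical axis) of 8 genes in each whole A375 culture by dabrafenib dose (µM, horizontal axis, equally spaced; black points, 1 culture each) and in clusters 1 and 3 of the 60 nM culture (blue and red squares). For all 8 genes the squares lie on either side of the whole 60 nM culture.

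Cluster 3 cells at 60 nM were close to cluster 3 cells at 30 nM. Of 9335 genes, 143 (1.53%) were at least 2-fold higher at 60 nM and 144 (1.54%) at least 2-fold lower. DCT was at 789 CPM in 60 nM cluster 3 and 229 CPM in 30 nM cluster 3, 3.44-fold higher (3.12 to 3.79). CITED1, a coregulator expressed in melanocytes, was at 96.9 CPM at 60 nM and 28.9 CPM at 30 nM, and TXNIP, a regulator of glucose uptake, was at 953 CPM at 60 nM and 297 CPM at 30 nM. NGFR was at 41.5 CPM at 60 nM and 146 CPM at 30 nM, 3.53-fold lower (2.71 to 4.65), and THBS1, thrombospondin, was 3.01-fold lower (2.52 to 3.61). MITF was at 261 CPM at 60 nM and 248 CPM at 30 nM, and SOX10 at 209 CPM at 60 nM and 185 CPM at 30 nM, both under 2-fold. The pigment gene DCT and the neural crest receptor NGFR therefore differed in opposite directions between cells of the same cluster at these doses. These cells come from different cultures, so culture and dose cannot be told apart. Their median depth also differed, at 4770 UMIs in 60 nM cluster 3 and 6347 UMIs in 30 nM cluster 3, and the part of depth was not tested.

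Cluster 1 cells at 60 nM were set beside untreated cluster 0 cells. Of 9474 genes, 208 (2.2%) were at least 2-fold higher in 60 nM cluster 1 and 172 (1.82%) at least 2-fold lower. Of 18 immediate early genes 13 were higher and none lower, with a median log2 ratio of 1.84. EGR1 was at 168 CPM in 60 nM cluster 1 and 13.4 CPM in untreated cluster 0, 12.5-fold higher (9.07 to 17.8), and JUNB was 6.66-fold higher, at 601 CPM in 60 nM cluster 1 and 90.2 CPM in untreated cluster 0. Of 19 MAPK output genes 2 were higher and 2 lower. SPRY4 was at 147 CPM in 60 nM cluster 1 and 192 CPM in untreated cluster 0, and DUSP6 at 316 CPM in 60 nM cluster 1 and 154 CPM in untreated cluster 0. DLGAP1 was 6.42-fold (5.68 to 7.28), RXRG 6.54-fold (4.32 to 10.3) and SLC2A3, a glucose transporter, 5.96-fold (5.05 to 7.07) higher in 60 nM cluster 1 than in untreated cluster 0. Of the 723 genes higher in cluster 1 than cluster 3 at 60 nM, 90 were at least 2-fold higher here and 7 lower. Of the 679 genes lower in cluster 1 than cluster 3, 423 were measured here, with 18 higher and 63 lower. Both sets were chosen by their levels in these same 60 nM cluster 1 cells. A lean in these directions was thus built in, and no conclusion is drawn from it. CEMIP, TGFA, NPAS2 and ABHD17C were at 227, 439, 670 and 286 CPM in untreated cluster 0. In 60 nM cluster 1 they were at 222, 518, 802 and 355 CPM. SLC24A3, VGF, CHRM3 and PDE3A were, like DLGAP1, at least 2-fold higher in 60 nM cluster 1. These groups differ in cluster as well as in culture and dose. In the 38 cells of cluster 0 at 60 nM, EGR1 was at 144 CPM, JUNB at 531 CPM and DLGAP1 at 444 CPM. RXRG was at 57.7 CPM there and SLC2A3 at 152 CPM. For these genes, 60 nM cluster 0 was thus also above untreated cluster 0. EGR1 was at 184, 101.3 and 144 CPM in 60 nM clusters 2, 3 and 4, and JUNB at 651, 355 and 532 CPM. For these 2 genes, a level above untreated cluster 0 was thus not particular to 60 nM cluster 1. In every treated whole culture both were above the untreated culture. NR4A1 differed, at 27.4 CPM in 60 nM cluster 4 and 38.4 CPM in untreated cluster 0. Culture and dose cannot be told apart, and the part of the cluster was not tested.

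The same cluster was also compared across cultures. Against the 69 untreated cells of cluster 1, 158 of 8297 genes (1.9%) were at least 2-fold higher in 60 nM cluster 1 and 42 (0.506%) at least 2-fold lower, among them IL24, a cytokine, at 9.31 CPM in 60 nM cells and 70.1 CPM in untreated cells. RXRG was at 56.1 CPM in 60 nM cluster 1 and 49.3 CPM in untreated cluster 1, EGR1 at 168 CPM in 60 nM cluster 1 and 56.97 CPM in untreated cluster 1, and DLGAP1 at 629 CPM in 60 nM cluster 1 and 157 CPM in untreated cluster 1. JUNB was at 601 CPM in 60 nM cluster 1 and 249 CPM in untreated cluster 1. Against the 175 cells of cluster 1 at 125 nM, 181 of 9127 genes (1.98%) were higher and 121 (1.33%) lower at 60 nM. A gene needed a minimum of UMIs in its higher group, which is a higher CPM in these smaller groups than in 60 nM cluster 1. Genes of low level were thus harder to call lower than higher at 60 nM. No conclusion is drawn from the balance of these counts.

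Cluster 4 (126 cells) was the next largest cluster of the 60 nM culture. Set beside cluster 3, 477 of 8707 genes (5.48%) were at least 2-fold higher in cluster 4 and 714 (8.2%) at least 2-fold lower. The UMI minimum is a higher CPM in cluster 4 than in the larger cluster 3, so genes of low level were harder to call higher. The balance of these counts is therefore not interpreted. DCT and NGFR had no UMI in cluster 4, and SOX10 was at 17.6 CPM there and 209 CPM in cluster 3. MME, neprilysin, was at 1065 CPM in cluster 4 and 104 CPM in cluster 3. MITF was at 225 CPM in cluster 4 and 261 CPM in cluster 3. Some genes with the lowest ratios of cluster 1 over cluster 3 were not particular to cluster 3. CNTN5, ZFPM2, CADM2 and DKK1 were at 484, 466, 535 and 316 CPM in cluster 4, in that order. In cluster 3 they were at 269, 462, 79.9 and 62.9 CPM. Others of that group, CD36, ADAMTSL1, NAV2, ANGPTL7, FBXL7 and NAV3, were lower in cluster 4 than in cluster 3.

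Genes of chromosome 11 were shifted as a group. Their median log2 ratio of cluster 1 over cluster 3 was -0.40 over 568 measured genes, and the medians of the other chromosomes lay between -0.07 and 0.14. Of the 568 genes 418 (73.6%) were below 0. Without the 23 genes at least 2-fold higher and the 88 at least 2-fold lower in cluster 1, the median of the other 457 was -0.28. The shift ran along the whole chromosome: in windows of 20 Mb the median lay between -0.60, in the first window, and -0.20, from 40 to 60 Mb. FTH1, TAGLN, CNTN5, NAV2, CD59, CTSD and IFITM2, all lower in cluster 1, lie on this chromosome, as do CCND1, CDKN1C and FJX1, which were higher.

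Set beside untreated cluster 0 cells, the chromosome 11 median was -0.08 in 60 nM cluster 1, where the median of all genes was -0.07, and 0.31 in 60 nM cluster 3, where that of all genes was -0.06. In whole treated cultures the chromosome 11 median was 0.26 with 30 nM, 0.04 with 60 nM, -0.06 with 125 nM and -0.02 with 250 nM. It was 0.25 with 500 nM, 0.27 with 1 µM, 0.26 with 2 µM and 0.24 with 4 µM. The median of all genes in these cultures was -0.04, -0.05, -0.08, -0.07, -0.09, -0.14, -0.16 and -0.14, in the same order. In single cells the 457 genes gave a median of 4.19% of UMIs in cluster 1 (10th to 90th percentile 3.84% to 4.56%) and 5.30% in cluster 3 (4.38% to 5.93%), beside 4.39% in untreated cluster 0 and 5.06% in 30 nM cluster 3. The number of copies of chromosome 11 in these cells was not measured.

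**Figure D5:**
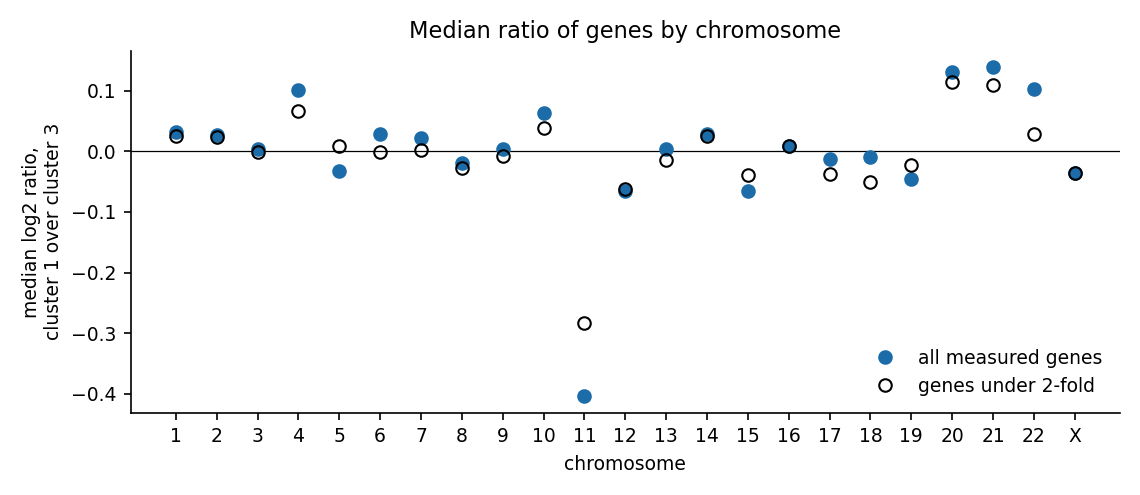
Median log2 ratio of cluster 1 over cluster 3 (vertical axis) over the measured genes of each chromosome (horizontal axis), for all measured genes (filled) and for genes under 2-fold (open). Chromosome 11 lies at -0.40 and -0.28, and the filled points of the other chromosomes between -0.07 and 0.14.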

How the data were processed

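The A375 table of raw UMI counts per gene and cell was deposited by the authors, who named Cell Ranger 7.0.0 and the GRCh38 build per the submitters' processing notes. The authors' cell table gave, per the file headers, each cell's cluster, its total count, how many genes it had and the mitochondrial percent. Totals and percents matched the count table for all 5059 listed cells, the percents within 0.001. How cells were filtered and clustered is not given in the sources used here. The cell name gave the culture.

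UMIs were summed per cluster and divided by the total to CPM. Ratios were log2(CPM + 1) of cluster 1 over cluster 3, where the pseudocount of 1 understates folds of low genes. Folds are ratios of CPM with exact binomial 95% intervals, and shares have exact Clopper-Pearson intervals. The calculation was tested on simulated data. A gene was measured at 10 CPM and 20 UMIs in the higher cluster and called different at 2-fold. No doublet caller was run. One alternative leaves out cells deeper than 2 times their cluster's median. A floor of 3 counts was used only for the stated lower bound of the fold of ITGA10, which had no UMI in cluster 3. In ratios and calls, genes without UMIs stayed at 0 CPM. TMM factors came from edgeR 4.0.16 in R 4.3.3, and the rest was done in Python 3.11.15 with numpy 2.4.6, scipy 1.17.1, pandas 2.3.3 and matplotlib 3.10.9. Gene positions came from GENCODE 29 (GRCh38), matched by symbol for 99.7% of 15945 genes. RefSeq promoters were matched by symbol for 76 of the 116 named genes. The PC9 tables were not used here, and the tag libraries entered only through the names of the cultures.

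Named genes were the 15 highest and 15 lowest ratios among genes with at least 50 CPM, without clone-named, antisense, LINC and mitochondrial genes, up to 4 members at 2-fold per list, and BRAF, SOX10, NGFR, MITF, SPRY4, DUSP6 and FTH1. In the other comparisons and for members of the 33 lists, further genes were named after their values were seen. Cells, lists and the chromosome comparison were chosen with earlier results of these data known. No p-value is given, since each culture is 1 sample.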

Additional observations from a re-analysis of the deposited data

How the results depend on the processing

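No paired analysis was possible because both clusters are cells of 1 culture, and no replicate could be left out. The counts of genes higher and lower in cluster 1 were 723 and 679. With a minimum of 50 CPM they were 361 and 247, and at 3-fold 310 and 330. Under the other alternatives they stayed within 1.5 times, between 723 and 967 higher and between 552 and 819 lower. Without the deepest cells they were 967 and 644, of which 684 and 488 were among the calls over all cells. With cells thinned to 2500 UMIs, where 7054 genes were measured, they were 807 and 552. Of these, 527 and 339 were among the calls over all cells, so similar counts do not mean the same genes. The median of the MAPK output list stayed between 1.29 and 1.93 and that of chromosome 11 between -0.43 and -0.28. Some list medians changed sign. Over all cells they were -0.22 for neural crest, -0.24 for matrix, 0.61 for receptor tyrosine kinase, -0.15 for fatty acid, -0.63 for complement and -0.12 for RAS, RAF, MEK and ERK genes. With a minimum of 50 CPM they were 0.15 for neural crest, 0.62 for matrix, -0.62 for receptor tyrosine kinase and 0.13 for fatty acid genes. Fatty acid genes were at 0.051 with TMM scaling. Without the deepest cells matrix genes were at 0.086, complement genes at 0.16 and fatty acid genes at 0.047. In thinned cells the RAS, RAF, MEK and ERK genes were at 0.083, matrix genes at 0.063 and fatty acid genes at 0.0735. The cause of these changes was not tested. Of the 116 named genes, 33 moved by more than 1.5-fold without the deepest cells, 37 in thinned cells, 24 with a pseudocount of 5 CPM, 23 with the mean over cells and 2 without cells of high mitochondrial share. Without the deepest cells the log2 ratio was 3.91 for INHBA (3.15 over all cells), 3.31 for RXRG (2.54), 3.19 for TNC (2.50) and -4.02 for CADM2 (-4.90). With 1589959 UMIs in cluster 3 and 4082725 in cluster 1, genes with under 20 UMIs in the higher cluster were not compared.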
